A study of Mus musculus with 12 samples.

Results

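The comparison described here is the knockdown of *Srrm2* against a control siRNA after 24 h in mouse embryonic stem cells, measured by RNA-seq of polyadenylated RNA. Its members were chosen by label: the 3 Srrm2-KD and the 3 Gl2-KD libraries harvested at 24 h, 6 of the 12 libraries of the study, paired by their experiment number. The other 6 libraries hold the same siRNAs at 72 h, after a further round of transfection, and are used below only to set the early differences beside the later ones. The cells were E14tg2a.4, an established male mouse embryonic stem cell line that the study calls wild-type, and both groups shared this genotype. They were grown in a GMEM-based medium with LIF, the cytokine that sustains self-renewal, moved to serum-free ESGRO medium with LIF before collection, and reverse-transfected with 50 nM siRNA by Lipofectamine RNAiMAX. Srrm2-KD cells received duplexes against *Srrm2* and Gl2-KD cells a duplex against the firefly luciferase gene Gl2, which mouse cells lack, so that transfection itself was shared by both groups. The experiments were independent repeats according to the study's methods, which name several *Srrm2* duplexes without saying which library received which.

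SRRM2 is a large protein rich in serine and arginine repeats. Together with SON it forms the scaffold of nuclear speckles, the compartments that store and modify splicing factors, and it is also found in the spliceosome close to the RNA exon. Its partial loss is known chiefly for altered inclusion of cassette exons, whereas the deposited table holds 1 value per gene and measures transcript amount, not splicing. The question here is which transcripts had a different amount 24 h after the siRNA.

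The 6 libraries held between 80944236 and 153298776 estimated counts, and 18132 of 42450 genes had enough counts to be tested. Experiment 1 stood apart from the others in level and in depth. On the first principal component, which carried 54.1% of the variance, its libraries lay at -88.6 and -67.1 and the other 4 between 29.5 and 47.0. A shift shared by both libraries of an experiment is taken out by the pairing. In experiment 1 the Srrm2-KD library was 1.89 times as deep as the Gl2-KD library, against ratios of 0.891 and 0.856 in experiments 2 and 3. Leading results are therefore given with and without experiment 1. All 7 markers of embryonic stem cells (*Pou5f1*, *Sox2*, *Nanog*, *Esrrb*, *Zfp42*, *Dppa5a* and *Utf1*) were present, with a summed level of 5030 to 6550 CPM in the 6 libraries, where CPM is a gene's count after TMM scaling, relative to the library total. Fibroblast markers summed to 7.79 to 18.4 CPM with 5 of 8 tested, those of primitive endoderm to 2.25 to 4.83 CPM, trophoblast to 3.43 to 9.92 CPM and mesoderm to 1.06 to 2.69 CPM, whereas neural markers summed to 13.4 to 37.2 CPM, nearly all of it *Pax6*. In bulk RNA, fewer cells of a type and less RNA per cell cannot be told apart.

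*Srrm2* (ENSMUSG00000039218, plus strand of chromosome 17 from 23790532 to 23824741 in GRCm38) was at 930.1, 502 and 452 CPM in the Gl2-KD libraries of experiments 1, 2 and 3, and at 521, 155 and 201 CPM in the matched Srrm2-KD libraries. Each knockdown library was below its own control, but the groups overlapped, because the Srrm2-KD library of experiment 1 was higher than the Gl2-KD libraries of the other experiments. The means were 628 ± 263 CPM (SD, n = 3) and 293 ± 199 CPM (SD, n = 3). The paired log2 fold change was -1.23 (SE 0.14), from single pairs of -0.84, -1.69 and -1.17. edgeR's quasi-likelihood test over all genes gave it an adjusted p of 0.255, DESeq2 on the same pairs 0.000269, and edgeR on experiments 2 and 3 alone 0.000164 with a log2 fold change of -1.43. Of the related genes, *Srrm1*, another speckle protein, was at 279 to 364 CPM in Gl2-KD and 255 to 372 CPM in Srrm2-KD, with a log2 fold change of -0.07 (SE 0.06). *Srrm3* and *Srrm4*, the neural members that promote microexon inclusion, stayed at or below 1.33 CPM in all 6 libraries, with log2 fold changes of -0.38 (SE 0.20) and 0.36 (SE 0.20). None of these 3 passed the test in edgeR (adjusted p between 0.582 and 0.724).

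No gene passed an adjusted p of 0.05 in edgeR when the 3 pairs were fitted together: 0 of 18132 genes (0%). At an unadjusted p below 0.05, 730 genes were higher (4.03%) and 1107 lower (6.11%) in Srrm2-KD. With one sign in all 3 pairs, 2982 genes were higher (16.4%) and 3072 lower (16.9%). limma-voom with the same pairing also called 0 genes, and DESeq2 called 258 (1.42%), 62 higher and 196 lower. The residual degrees of freedom were 2 in the paired fit and the common biological coefficient of variation was 0.122. The smallest adjusted p, 0.147, belonged to *Vps35*.

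How far the 3 pairs agreed depended on the experiment. Over the 8733 genes with a mean of at least 10 CPM, the log2 differences of experiments 2 and 3 had a Pearson r of 0.574 across genes, whereas those of experiment 1 had r of 0.0833 with experiment 2 and -0.0268 with experiment 3. These correlations run across genes of paired libraries, which are not independent replicates. Over all 18132 genes the values were 0.229, 0.0317 and 0.0432, and between 1 and 10 CPM (4099 genes) 0.274, 0.0383 and 0.0483. At 10 CPM or more the SD of the differences was 0.183, 0.188 and 0.242 in experiments 1, 2 and 3, so the spread of the differences was similar in the 3 pairs. In that range only 2 genes were over 0.5 higher and 4 genes over 0.5 lower on the log2 scale in all 3 pairs. The lower ones included *Srrm2*, *Vps35* and *Ppm1j*, and the higher ones were *Akap8l* and *Tyk2*, a kinase of the JAK family that was picked out here after its values were seen. *Tyk2* was listed at 0 in the Gl2-KD library of experiment 1, at 12.6 CPM in both other controls and at 1.22, 18.3 and 18.0 CPM in Srrm2-KD.

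**Figure D1:**
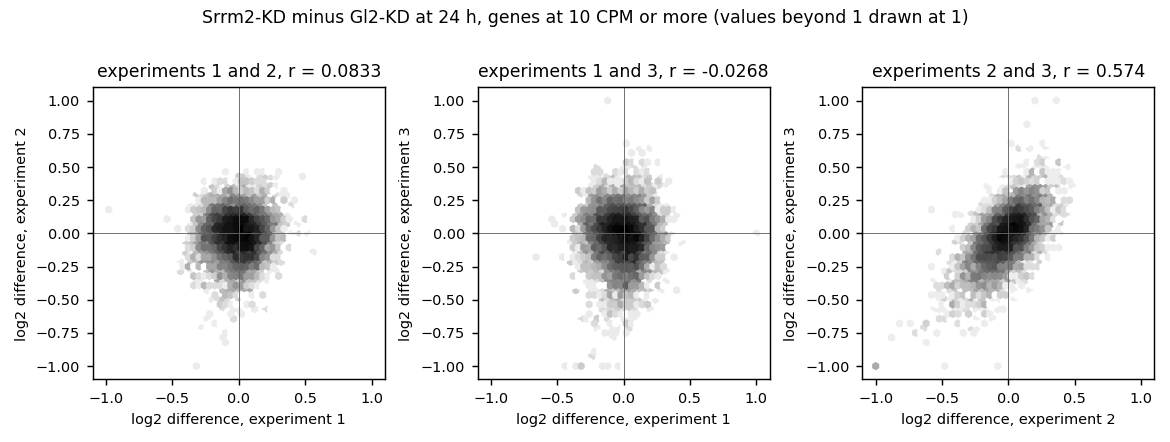
Log2 differences between Srrm2-KD and Gl2-KD at 24 h in one experiment (x axis) against another (y axis) for genes with a mean of at least 10 CPM, with 1 panel for each pair of experiments and shading by the number of genes. The cloud is tilted for experiments 2 and 3 (r of 0.574 over 8733 genes) and has no clear slope for experiments 1 and 2 (0.0833) or 1 and 3 (-0.0268).

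Genes ranked on 2 experiments were also read in the remaining one, which had no part in the ranking. Of the 100 genes most reduced on average in 2 experiments, among 12832 genes with a mean of at least 1 CPM, 78 were also lower in experiment 1, 83 in experiment 2 and 70 in experiment 3, where 50.9%, 50.9% and 52.1% of all these genes were lower. Of the 100 most raised, 55, 65 and 71 were higher in the remaining experiment, against 49.1%, 49.1% and 47.9% of all genes. The 100 most reduced genes had a median difference of -0.25 in experiment 1 when ranked on the others, compared with -0.67 in experiment 2 and -0.65 in experiment 3.

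Of the alternatives tried, leaving out experiment 1 changed the number of calls most. With experiments 2 and 3 alone, which leaves 1 residual degree of freedom, edgeR called 268 genes higher (1.49%) and 671 lower (3.72%) of 18047. Without experiment 2 it called 12 genes and without experiment 3 it called 31. Of the genes called from experiments 2 and 3 and also tested on all pairs, 160 of 266 higher genes (60.2%) and 405 of 666 lower genes (60.8%) had the same sign in experiment 1, where 49.9% of all tested genes were higher and 50.1% lower. Only *Srrm2*, *Akap8l* and *Gm10925* were called in all 3 fits of 2 experiments. In all, 13 genes were called both without experiment 1 and without experiment 3, among them *Vps35*, *Cmpk1*, *Haghl*, *Ppm1j*, *Cox6b2* and *Amh*.

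The genes of smallest p that were lower in all 3 pairs are described first. They, and the higher genes after them, were picked on all 3 pairs. Their values in the fit of experiments 2 and 3 are therefore not independent evidence. *Vps35*, the core subunit of the retromer that returns membrane proteins from endosomes, was at 227, 154 and 198 CPM in Gl2-KD and at 144, 101 and 132 CPM in Srrm2-KD. All 3 knockdown libraries were below all 3 controls, and the single differences of -0.66, -0.61 and -0.59 were nearly equal. Its log2 fold change was -0.62 (SE 0.06, edgeR adjusted p = 0.147), and the fit of experiments 2 and 3 called it (log2 fold change -0.60, adjusted p = 0.000824). *Cmpk1*, the kinase that phosphorylates UMP and CMP for nucleotide synthesis, was at 61.3, 70.1 and 71.5 CPM against 40.0, 44.2 and 54.5 CPM, which did not overlap either (log2 fold change -0.56, SE 0.07).

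*Ppm1j*, a protein phosphatase of the PP2C family, had controls close to one another, at 42.7, 44.1 and 45.2 CPM, and lay at 28.8, 16.2 and 14.1 CPM in Srrm2-KD. The difference was smaller in experiment 1 (-0.57) than in experiments 2 and 3 (-1.44 and -1.68). *Haghl*, a relative of the glyoxalase enzyme that clears methylglyoxal adducts, was at 7.96, 13.8 and 14.9 CPM in Gl2-KD and at 4.82, 4.03 and 4.41 CPM in Srrm2-KD (log2 fold change -1.42, SE 0.21). Neither gene's groups overlapped. In the fit of experiments 2 and 3, *Ppm1j* fell by 1.56 (edgeR adjusted p = 2.06e-05) and *Haghl* fell by 1.77 on the log2 scale (adjusted p = 7.57e-05). *Haghl* shares 18.1% of its 31-base words with *Narfl*, which lies on the opposite strand. *Csad*, which makes the precursor of taurine, was at 16.7, 17.2 and 21.3 CPM against 11.9, 8.97 and 11.6 CPM, and *Mmp23*, a membrane-bound metalloproteinase, at 1.35, 2.05 and 2.37 CPM against 0.671, 0.716 and 0.928 CPM. Both sets of libraries were apart, with log2 fold changes of -0.77 (SE 0.11) and -1.30 (SE 0.19). *Nckipsd*, an adaptor of the actin cytoskeleton, and *Akap2*, an anchor of protein kinase A, had log2 fold changes of -0.57 (SE 0.09) and -0.42 (SE 0.06). Their groups overlapped because the experiments differed in level, and *Akap2* shares 84.6% of its 31-base words with the overlapping gene *Pakap*, so it cannot be assigned with confidence.

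**Figure D2:**
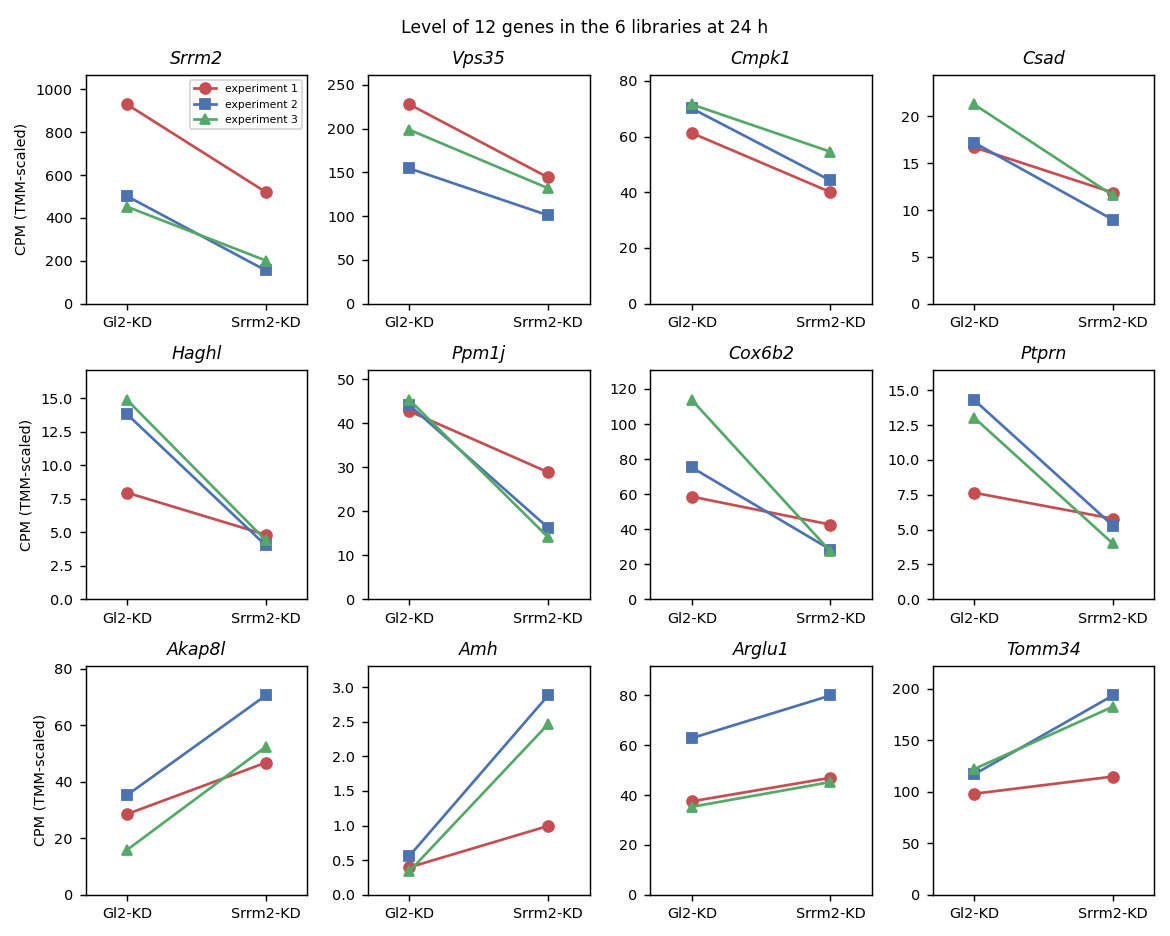
Levels in CPM (y axis, 1 panel per gene) of 12 genes in the Gl2-KD and Srrm2-KD libraries at 24 h (x axis), with a line joining the 2 libraries of each experiment. *Vps35*, *Cmpk1*, *Csad*, *Haghl*, *Ppm1j*, *Cox6b2* and *Ptprn* lay lower in every Srrm2-KD library than in every control, and *Akap8l* and *Amh* higher, whereas *Srrm2*, *Arglu1* and *Tomm34* shifted within each experiment with groups that overlapped.

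Among the genes of smallest p that were higher in all 3 pairs was *Akap8l*, an anchoring protein of the nucleus that binds an RNA helicase. It was at 28.6, 35.3 and 15.9 CPM in Gl2-KD and at 46.8, 70.6 and 52.4 CPM in Srrm2-KD. The groups did not overlap and the differences were 0.71, 1.00 and 1.72, giving a log2 fold change of 1.14 (SE 0.17, edgeR adjusted p = 0.277). It rose by 1.35 on the log2 scale in the fit of experiments 2 and 3 (adjusted p = 0.000824). *Arglu1*, an arginine-rich and glutamate-rich protein that modulates splicing, was at 37.5, 62.8 and 35.3 CPM in Gl2-KD and at 46.9, 80.0 and 45.2 CPM in Srrm2-KD. Its 3 differences of 0.32, 0.35 and 0.36 were close to one another although the levels overlapped, and the log2 fold change was 0.34 (SE 0.06, edgeR adjusted p = 0.277).

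*Amh*, the hormone that makes the Müllerian duct regress, had a low level, at 0.397, 0.562 and 0.340 CPM in Gl2-KD and 0.994, 2.88 and 2.46 CPM in Srrm2-KD. The groups did not overlap, and the log2 fold change was 2.20 (SE 0.30, edgeR adjusted p = 0.277). *Phf20l1*, a reader of methylated lysines, was at 3.22, 3.65 and 3.97 CPM against 5.73, 6.18 and 7.74 CPM, with even differences of 0.83, 0.76 and 0.96. *Platr4*, a long noncoding RNA named for its association with pluripotency, was at 8.18, 10.5 and 9.51 CPM against 10.4, 20.9 and 15.9 CPM, so the lowest knockdown library lay just under the highest control. *Fggy*, a carbohydrate kinase, *Glod5*, a glyoxalase-domain protein, and *Ms4a10*, a membrane-spanning protein, had log2 fold changes of 0.51 (SE 0.09), 0.49 (SE 0.09) and 0.83 (SE 0.14), each with overlapping groups. All of these also passed an adjusted p of 0.05 in experiments 2 and 3 alone. Those libraries had a part in choosing these genes, so this is not independent evidence. The 2 remaining genes cannot be assigned: every 31-base word of the mitochondrial-like pseudogene *Gm10925* occurs in other genes, with *mt-Atp6* first among them, as do 88.9% of those of *Hmgb1-ps2*. *Gm10925* was at 1006, 1438 and 1014 CPM in Gl2-KD and 1612, 1839 and 2028 CPM in Srrm2-KD (log2 fold change 0.68, SE 0.11).

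Genes were then grouped into 55 lists by function, described by counts and by the median log2 fold change of their tested members. Over all tested genes that median was 0.00 (-0.00223), and 37 of the 55 list medians were below 0. Since no gene passed the adjusted test on 3 pairs, the counts that follow are of members at an unadjusted p below 0.05, to be read against 4.03% higher and 6.11% lower over all genes, and of members called by edgeR in experiments 2 and 3, to be read against 1.49% and 3.72%. For many lists the counts after a correction for GC content and transcript length, described below, are given too, to be read against 1041 higher (5.74%) and 1492 lower (8.23%) genes on 3 pairs. Many single genes named below had the smallest p of their list on all 3 pairs. Their values in experiments 2 and 3 are therefore not independent evidence. Adjusted p-values of single genes in experiments 2 and 3 are without the correction for GC content and length. With it, 127 of the 939 genes called there were called again. Many lists kept no call there. Among them were core pluripotency, Nodal signalling, cell type splicing regulators, the NRF2 response, hypoxia and DNA methylation. The same held for formative factors, FGF, ERK targets, innate sensing, the core spliceosome, glycolysis and lysosomal genes. Replication genes, imprinted genes, neuropilins and the list of epithelial and mesenchymal identity kept none either. The p53 targets and the Platr and Snhg RNAs were among the lists that kept some.

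The lists of splicing machinery had few members past the unadjusted threshold. Of 27 nuclear speckle proteins, 1 was higher and 3 lower, *Srrm2* among them, with a median of -0.01. Of 13 SR proteins, the family of splicing activators, only *Srsf7* was lower (log2 fold change -0.24, SE 0.07, from 163 to 190 CPM in Gl2-KD to 145 to 154 CPM in Srrm2-KD, without overlap), and the median was 0.04. Among 20 hnRNP proteins, which often oppose SR proteins, 1 was higher and 2 lower, with *Hnrnpul2* at -0.18 (SE 0.06). The 49 core spliceosome genes had 2 higher and 1 lower with a median of 0.05, or 6 higher and 2 lower with a median of 0.03 after correction, and 16 were higher and 2 lower in all 3 pairs, where 16.4% and 16.9% of all genes were. *Sf3b5*, a subunit of the U2 particle, had 3 nearly equal differences of 0.29, 0.31 and 0.30 (log2 fold change 0.30, SE 0.06). Of 26 splicing regulators of particular cell types, *Ptbp2*, a paralogue of *Ptbp1* active in developing neurons, was the one that rose in experiments 2 and 3 (by 0.40, edgeR adjusted p = 0.00615), with a difference of 0.06 in experiment 1. None of 18 genes of nonsense-mediated decay, the pathway that removes transcripts with early stop codons, had an unadjusted p below 0.05 in either direction.

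The 27 tested genes of the study's table of splicing events at 24 h were also read for their total transcript amount. Of these 1 was higher and 6 lower, with a median of -0.09, and 8 fell in experiments 2 and 3. After correction for GC content and length 3 were higher and 7 lower on 3 pairs with a median of -0.06, and in experiments 2 and 3 the calls were 1 higher and 3 lower. The study chose this list on these samples, so its direction is not independent evidence. Among them *Dtx3*, a ubiquitin ligase of the Deltex family, was at 59.9, 63.4 and 81.2 CPM in Gl2-KD and 50.7, 40.9 and 45.0 CPM in Srrm2-KD, without overlap. It fell by 0.74 in experiments 2 and 3 (edgeR adjusted p = 0.000657), against a difference of -0.24 in experiment 1. *Pcyt2*, the rate-limiting enzyme of phosphatidylethanolamine synthesis, differed the other way, with 0.32, 0.16 and 0.25 in the 3 pairs (log2 fold change 0.24, SE 0.06), and did not pass in any fit named here (adjusted p = 0.359 in edgeR on 3 pairs and 0.0864 on experiments 2 and 3).

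Core pluripotency factors had a median of -0.02 at 24 h. *Pou5f1*, which encodes OCT4, was at 1343, 1978 and 1778 CPM in Gl2-KD and 1388, 1831 and 1717 CPM in Srrm2-KD, a log2 fold change of -0.04 (SE 0.05) whose sign changed with some settings. Of 15 core factors and Dppa genes, 2 were higher and none lower, but 1 higher and 4 lower after correction for GC content and length, with a median of 0.02 (0.0154). *Dppa3*, a maternal factor that shields methylation in the zygote, rose by 0.45 in experiments 2 and 3 (edgeR adjusted p = 0.00476) and differed by 0.16 in experiment 1, but 29.6% of its 31-base words occur in other genes. Of 16 naive factors, 2 were higher and 2 lower, or 2 and 5 after correction, with a median of -0.08 and -0.09. *Tfcp2l1*, a naive factor downstream of LIF, had differences of -0.25, -0.43 and -0.34 and fell by 0.39 in experiments 2 and 3 (edgeR adjusted p = 0.00701).

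Of 22 formative and primed factors, 2 were higher and none lower, and their median differed between experiments, at -0.03, -0.03 and 0.31. *Otx2*, a factor of the formative state, was at 51.7, 51.7 and 125 CPM in Gl2-KD and 47.7, 60.9 and 185 CPM in Srrm2-KD, lower in experiment 1 and higher in the others. *Dnmt3b*, a de novo DNA methyltransferase that shares 13.5% of its 31-base words with *Dnmt3c*, had differences of 0.14, 0.03 and 0.52. Of 28 tested markers of germ layers and extraembryonic tissue 1 was higher and none lower, and of 33 tested two-cell-like genes 2 were higher and none lower, with a median of 0.15. *Duxf3*, the inducer of that state, had a log2 fold change of 1.12 (SE 0.43) at a level of at most 0.267 CPM, with 60.3% of its 31-base words found elsewhere.

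In the signalling pathways most counts were of lower members before correction for GC content and length. After it they were 0 higher and 5 lower for BMP, 0 and 2 for FGF, and 1 and 4 for Wnt. Nodal signalling then had 0 and 3, and the immediate early genes 1 and 3. The other way went the Notch list, with 7 and 4, and the ERK targets, with 2 and 1, while the LIF list had 2 and 2. In the LIF and STAT3 pathway *Pim1*, a kinase induced by STAT3, was at 50.3, 24.4 and 44.0 CPM in Gl2-KD and 48.0, 15.8 and 26.6 CPM in Srrm2-KD, and it fell by 0.68 in experiments 2 and 3 (edgeR adjusted p = 0.000922). The difference was only -0.07 in experiment 1. Of 24 genes of BMP signalling none was higher and 4 were lower, with *Smad9* (log2 fold change -1.02, SE 0.33) at no more than 0.389 CPM. Of 16 FGF ligands and receptors 1 was higher and 2 lower, among them *Fgf11*, an intracellular FGF-like factor, at 4.70, 2.87 and 5.25 CPM against 3.17, 1.61 and 2.38 CPM (log2 fold change -0.84, SE 0.16). Of 29 Wnt pathway genes none was higher and 4 lower, and the ligand gene *Wnt7b* was equal in experiment 1 (1.26 CPM in both libraries) but fell by 1.19 in experiments 2 and 3 (edgeR adjusted p = 0.00232).

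Of 17 genes of Nodal signalling none was higher and 4 lower. *Foxh1*, the transcription factor that brings SMAD2 to Nodal targets, was at 50.7, 66.8 and 52.5 CPM in Gl2-KD and 44.8, 46.9 and 35.9 CPM in Srrm2-KD, and fell by 0.53 in experiments 2 and 3 (edgeR adjusted p = 0.00145). The groups did not overlap and the difference was -0.18 in experiment 1. *Lefty2*, a secreted Nodal inhibitor that shares 18.4% of its 31-base words mainly with *Lefty1*, had differences of -0.20, -0.09 and -0.22. Of 31 genes of the Notch pathway and the Deltex family, 3 were higher and 4 lower, but 7 higher and 4 lower after correction. Among 17 immediate early genes, which respond within minutes to growth signals, 1 was higher and 4 lower, with a median of -0.20, the lowest of the 55 lists. *Egr1* had differences of -0.39, -0.24 and -0.31, and the antiproliferative gene *Btg2* the opposite sign, 0.19, 0.46 and 0.40. For the ERK targets the count was none higher and 3 lower of 23, turning to 2 higher and 1 lower after correction, with medians of -0.01 and 0.00 (0.00426) and *Spred3*, an inhibitor of the RAS pathway, at -0.43 (SE 0.12).

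The matrix and actin lists had the highest counts of lower members on 3 pairs. Of 36 tested genes of extracellular matrix and integrins, 12 were lower and none higher at an unadjusted p below 0.05, and 10 fell in experiments 2 and 3. In all 3 pairs 15 were lower, where 16.9% of all genes were. Their median was -0.14, from -0.06, -0.19 and -0.25 in the single experiments. *Thbs1*, a matricellular glycoprotein, was at 1.22, 3.10 and 4.84 CPM in Gl2-KD and 0.727, 2.19 and 1.78 CPM in Srrm2-KD (log2 fold change -0.90, SE 0.21). The summed fibroblast markers, which overlap this list in the collagen genes, were 9.01, 13.3 and 18.4 CPM in Gl2-KD and 7.79, 11.9 and 18.1 CPM in Srrm2-KD, and their part in the result was not tested. Correction for GC content and length left 12 lower and 1 higher on 3 pairs, with a median of -0.09. It left none of the 10 calls of experiments 2 and 3, where the median was -0.21 before and -0.14 after it.

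Of 35 targets of SRF and genes of the actin cytoskeleton, 9 were lower and none higher, and 11 fell in experiments 2 and 3. The median was 0.05 in experiment 1 but -0.15 and -0.25 in experiments 2 and 3. After correction 10 were lower and 1 higher on 3 pairs with a median of -0.09, and none of the 11 calls remained, with a median of -0.11 in place of -0.18 in that fit. *Pdlim7*, which ties protein kinases to actin filaments, was at 29.8, 57.0 and 42.4 CPM against 26.6, 39.9 and 30.3 CPM, and fell by 0.50 in experiments 2 and 3 (edgeR adjusted p = 0.00217). Of 29 genes of epithelial and mesenchymal identity 1 was higher and 6 lower, or 4 and 6 after correction. The tight junction gene *Cldn6* was at 9.79, 16.8 and 29.3 CPM in Gl2-KD and 7.45, 10.4 and 22.6 CPM in Srrm2-KD, with differences of -0.39, -0.69 and -0.37, whereas *Vim*, the intermediate filament of mesenchymal cells, had differences of 0.12, 0.19 and 0.32. Among 28 neuropilins, plexins and semaphorins 1 was higher and 5 lower, with the semaphorin receptor *Plxnb1* at -0.26 (SE 0.08). Of 18 syndecans, glypicans and their modifying enzymes none had an unadjusted p below 0.05, and of 15 NFAT and calcineurin genes 3 were lower, with *Nfatc4*, a calcium-regulated transcription factor, at -0.39 (SE 0.12).

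Before correction for GC content and length, the mitochondrial genome had the list with the highest median. Of 13 genes for respiratory chain subunits encoded in mitochondrial DNA, 9 were higher and none lower at an unadjusted p below 0.05, and 9 rose in experiments 2 and 3. Their median was 0.24, from 0.11, 0.25 and 0.41 in experiments 1, 2 and 3. *mt-Cytb*, the cytochrome b of complex III, was at 3903, 3398 and 2202 CPM in Gl2-KD and 4530, 4049 and 2933 CPM in Srrm2-KD, higher in each pair with groups that overlapped (log2 fold change 0.29, SE 0.06, edgeR adjusted p = 0.277). The share of all counts from the mitochondrial genome was 3.85%, 2.73% and 2.36% in the Gl2-KD libraries, against 4.05%, 3.18% and 2.86% in the Srrm2-KD libraries. These transcripts have a median GC content of 37.1%, and with GC content and length corrected the median was 0.11, with 5 members higher and 1 lower, and no call in experiments 2 and 3.

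Nuclear genes of the same complexes had a smaller median. Of 82 tested, 3 were higher and 1 lower, with a median of 0.06, whereas 30 were higher and 2 lower in all 3 pairs, against 16.4% and 16.9% of all genes. After correction for GC content and length 4 were higher and 5 lower, with a median of 0.01. The 1 lower before correction was *Cox6b2*, the testis form of a complex IV subunit, at 58.6, 75.2 and 114 CPM in Gl2-KD and 42.6, 28.4 and 27.3 CPM in Srrm2-KD, without overlap. Its differences of -0.46, -1.41 and -2.06 were all negative but uneven, with a log2 fold change of -1.31 (SE 0.26), and it fell by 1.73 in experiments 2 and 3 (edgeR adjusted p = 0.000163). Of 37 genes of mitochondrial protein import, 2 were higher and 2 lower. *Tomm34*, a cytosolic cochaperone of import, was at 98.0, 117 and 122 CPM in Gl2-KD and 115, 193 and 183 CPM in Srrm2-KD, and rose by 0.65 in experiments 2 and 3 (edgeR adjusted p = 0.000824). Of 84 cytosolic ribosomal protein genes 7 were higher and 3 lower, with a median of 0.07, and 28 were higher and 2 lower in all 3 pairs. After correction 7 were higher and 2 lower, with a median of 0.03. *Rpl34*, one of the 3 lower ones, had differences of -0.34, -0.33 and -0.17.

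Among stress and metabolic programmes, the ATF4, cholesterol and glycolysis lists had lower but no higher members before correction. Of 34 tested ATF4 targets, which answer to amino acid shortage, none was higher and 5 lower, and 9 fell in experiments 2 and 3. With GC content and length corrected, 1 was called lower there, with a median of -0.18 in place of -0.23, and on 3 pairs 1 was higher and 8 lower. The uncorrected median was 0.03 in experiment 1 and -0.09 and -0.37 in the others. *Slc7a1*, the arginine and lysine transporter, had differences of -0.21, -0.41 and -0.47. Of 25 p53 targets 3 were higher and 2 lower, or 6 and 2 after correction, and *Ccng1*, a cyclin that p53 induces, was at 195, 214 and 233 CPM in Gl2-KD and 150, 179 and 188 CPM in Srrm2-KD (log2 fold change -0.32, SE 0.06, edgeR adjusted p = 0.277), with values that did not overlap. Among 26 genes of cholesterol synthesis and uptake none was higher and 3 lower. In all 3 pairs 1 was higher and 11 lower, where 16.4% and 16.9% of all genes were. After correction none was higher and 10 were lower, with a median of -0.11 in both fits. Of 24 glycolytic genes none was higher and 3 lower, or 3 and 4 after correction, with the glucose transporter gene *Slc2a3* at -0.25 (SE 0.05). In the unfolded protein response of the endoplasmic reticulum 1 of 20 was lower, in the heat shock response 1 of 19 was higher and 2 lower, and in the NRF2 response 3 of 38 were higher, led by the aldo-keto reductase gene *Akr1b8*, which rose by 0.67 in experiments 2 and 3 (edgeR adjusted p = 0.00936).

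Transfected duplex RNA can be sensed by the innate immune system, and both groups received it. Of 33 tested sensors and interferon-stimulated genes 6 were higher and 1 lower, at low levels. *Tlr3*, the endosomal receptor of double-stranded RNA, was at 0, 0.101 and 0.120 CPM in Gl2-KD and 0.137, 0.447 and 0.704 CPM in Srrm2-KD, without overlap. *Ifit1*, an interferon-induced RNA-binding protein, was at 0.175, 0.490 and 0.405 CPM against 0.230, 0.838 and 1.29 CPM. *Ago2*, the nuclease of RNA interference, was at 451, 127 and 120.2 CPM against 385, 110.2 and 109 CPM, with differences of -0.23, -0.20 and -0.14.

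Of 44 mitotic genes 1 was higher and 3 lower, and of 43 replication genes 1 was higher and 2 lower, or none and 7 after correction for GC content and length. *Spc24*, a subunit of the kinetochore, was at 58.5, 93.2 and 87.3 CPM in Gl2-KD and 48.5, 57.2 and 60.2 CPM in Srrm2-KD and fell by 0.62 in experiments 2 and 3 (edgeR adjusted p = 0.00102). Of 34 repair genes 1 was lower, *Ankle1*, an endonuclease, which fell by 0.91 in the same fit (adjusted p = 0.000624) and differed by -0.27 in experiment 1. Of 56 tested histone genes 5 were higher and 3 lower. The histone variant gene *H2afx* went in opposite directions, with 0.10 in experiment 1 and -0.51 and -0.63 in experiments 2 and 3.

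The remaining metabolic and regulatory lists held few members past the unadjusted threshold: none higher and 3 lower of 37 lysosomal and autophagy genes, 1 and 3 of 19 for fatty acid synthesis, 1 and 2 of 25 for phospholipid synthesis, 1 and 2 of 25 for hypoxia, 0 and 1 of 18 for arginine metabolism, and 2 and 3 of 19 for DNA methylation. After correction the hypoxia list had 1 higher and 7 lower. In the hypoxia list *Vegfa*, the vascular growth factor, was at 49.0, 12.4 and 28.4 CPM in Gl2-KD and 46.2, 9.77 and 16.1 CPM in Srrm2-KD, so its level varied more between experiments than between siRNAs. It fell by 0.59 on the log2 scale in experiments 2 and 3 (edgeR adjusted p = 0.0178) and did not pass over the 3 pairs (adjusted p = 0.403). *Gadd45b*, a stress gene linked to DNA demethylation, was at 7.79 ± 5.01 CPM (SD, n = 3) in Gl2-KD and 4.66 ± 2.76 CPM (SD, n = 3) in Srrm2-KD, lower in all 3 pairs, and fell by 0.84 in experiments 2 and 3 (edgeR adjusted p = 0.00582, against 0.349 over the 3 pairs). Of 33 germline genes 1 was higher and 1 lower, or 1 and 6 after correction, the lower one before correction being *Kit*, the stem cell factor receptor, with log2 differences of -0.17, -0.37 and -0.34 in the 3 pairs. Of 14 housekeeping genes 2 were higher and none lower, with *Tfrc*, the transferrin receptor, with log2 differences of 0.000799, 0.44 and 0.24 in the 3 pairs.

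Among developmental and noncoding groups, 3 of 36 tested imprinted genes were higher and 6 lower. *Zdbf2* had differences of -0.37, -0.27 and -0.34, and the maternally expressed noncoding RNA *Meg3* -0.01, -0.33 and -0.18. Of 36 tested neuronal genes 4 were higher and 5 lower, and *Ptprn*, a protein of secretory granules, was at 7.64, 14.3 and 13.0 CPM in Gl2-KD and 5.78, 5.29 and 4.00 CPM in Srrm2-KD. It fell by 1.57 in experiments 2 and 3 (edgeR adjusted p = 0.000183), with groups that did not overlap and a difference of -0.40 in experiment 1. Of 51 tested long noncoding RNAs of the Platr and Snhg families and other known ones, 6 were higher and 8 lower. *Neat1*, the scaffold RNA of paraspeckles, bodies found beside nuclear speckles, was at 184, 201 and 323 CPM in Gl2-KD and 158, 128 and 208 CPM in Srrm2-KD, and fell by 0.65 in experiments 2 and 3 (edgeR adjusted p = 0.00061).

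**Figure D3:**
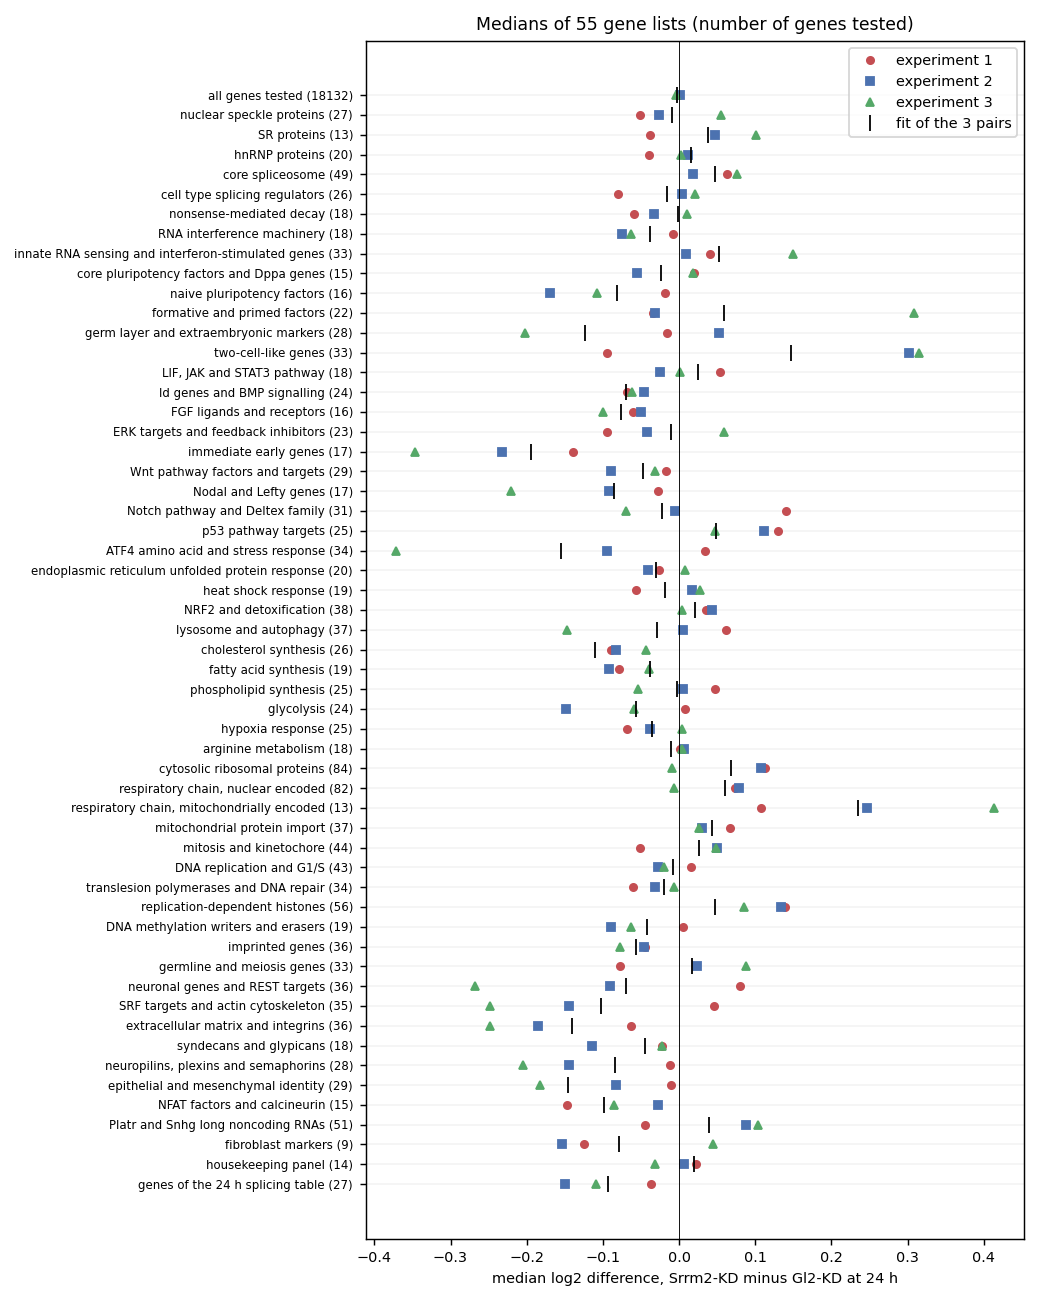
Median log2 difference between Srrm2-KD and Gl2-KD at 24 h (x axis) of the tested genes of 55 functional lists (y axis), with 1 point for each experiment and 1 for the paired fit. The respiratory chain genes of the mitochondrial genome had the highest median in the fit (0.24), the matrix and integrin list lay at -0.14 with all 3 experiments below 0, and the ATF4 list ranged from 0.03 to -0.37 between experiments.

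Gene properties separated experiment 1 from the other experiments. Among 8714 genes of at least 10 CPM with an annotated transcript, the GC content of the transcript had a Spearman rho across genes of 0.568 with the log2 difference in experiment 1, and of -0.457 and -0.356 in experiments 2 and 3. In the fifth of these genes with the lowest GC content the median difference was -0.14, 0.08 and 0.07 in experiments 1, 2 and 3, and in the fifth with the highest it was 0.09, -0.12 and -0.12. Transcript length had rho of -0.317, -0.133 and 0.0363, and the number of exons -0.0589, -0.149 and -0.0765. The calls of experiments 2 and 3 followed GC content: 9 higher and 286 lower genes lay in the fifth with the highest GC content, and 87 higher and 14 lower genes in that with the lowest. Genes were binned by mean intron length in the same way. The bin with the shortest introns, whose genes are also GC-rich (median 54.7%), held 14 higher and 259 lower genes. With GC content and length corrected, 8 higher and 46 lower calls lay there, against 15 and 33 in the bin of highest GC content. On 3 pairs the corrected counts at an unadjusted p below 0.05 were 151 higher and 267 lower, against 258 and 193 in the bin of highest GC content. The part of intron length in these counts was not tested.

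With smooth trends in GC content and length removed from each library, edgeR on experiments 2 and 3 called 34 genes higher (0.188%) and 103 lower (0.571%), and 127 of these 137 genes (92.7%) had been called without the correction, 13.5% of the 939. Over 3 pairs the correction left 0 calls, and r between experiments 1 and 2 was 0.30 after removal of the trends in place of 0.0833, 0.123 between experiments 1 and 3, and 0.517 between experiments 2 and 3. The source of these trends was not tested.

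**Figure D4:**
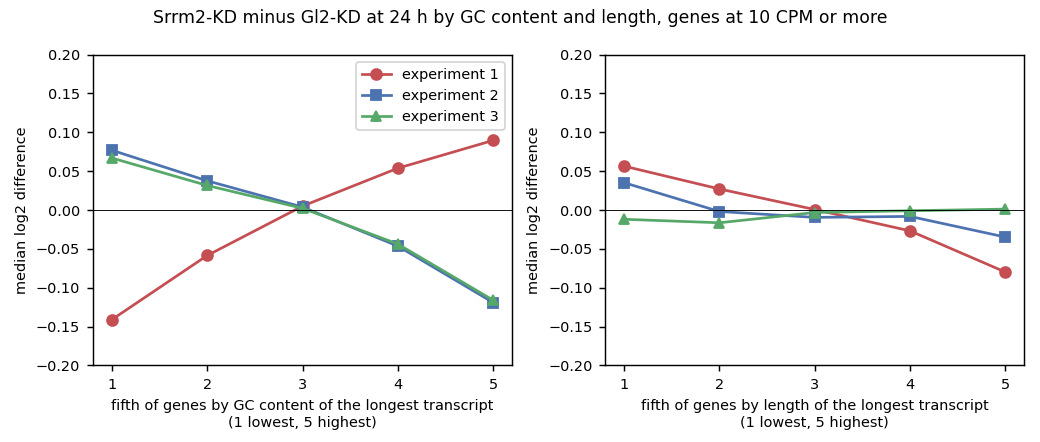
Median log2 difference between Srrm2-KD and Gl2-KD at 24 h (y axis) in 5 equal bins of transcript GC content and of transcript length (x axes), with 1 line per experiment, for genes with a mean of at least 10 CPM. The line of experiment 1 runs from -0.14 to 0.09 with rising GC content, and those of experiments 2 and 3 run the other way, from 0.08 and 0.07 to -0.12.

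The early differences were finally set beside those at 72 h in the same experiments, whose control libraries are separate. Across 8733 genes of at least 10 CPM, the differences of experiment 3 at 24 h had r of 0.602, 0.599 and 0.61 with those of experiments 1, 2 and 3 at 72 h, and the differences of experiment 2 had 0.398, 0.535 and 0.37. The differences of experiment 1 at 24 h had r of 0.101, 0.0271 and -0.216 with them. These correlations are without the correction for GC content and length. The median log2 fold change at 72 h was 0.04 in the fifth of genes with the lowest GC content and -0.14 in that with the highest. The part of GC content in the correlations between the time points was not tested. In a fit of all 12 libraries 0 of 19410 genes (0%) differed between the time points in their response at an adjusted p below 0.05 in edgeR. At an unadjusted p below 0.05, 328 genes had a higher and 547 a lower value at 72 h, and DESeq2 called 7 genes and limma-voom 0. The fold change of *Srrm2* on the log2 scale was -1.23 at 24 h and -1.16 at 72 h, a difference of 0.06 (SE 0.20, edgeR adjusted p = 0.995).

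Several of the leading genes had similar values at both times. *Haghl* was at -1.42 and -1.40, *Ppm1j* at -1.23 and -1.23, *Ptprn* at -1.18 and -1.16, *Mmp23* at -1.30 and -1.18, and *Cox6b2* at -1.31 and -1.64 on the log2 scale, at 24 h and 72 h respectively. In experiment 1, where *Cox6b2* and *Ptprn* differed by -0.46 and -0.40 at 24 h, the differences at 72 h were -1.64 and -0.83. *Vps35* (-0.62 and -0.45) was closer to 0 at 72 h, by 0.16 (SE 0.14), and *Otx2* further from it, at 0.23 and 0.80 with a difference of 0.56 (SE 0.22). None of these differences passed the test in edgeR (adjusted p of at least 0.965). *Phf20l1* was higher in all 3 pairs at 24 h and lower in all 3 at 72 h, at -1.82, -0.27 and -7.74, and the difference of -2.89 (SE 1.01) was not called either (edgeR adjusted p = 0.965).

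**Figure D5:**
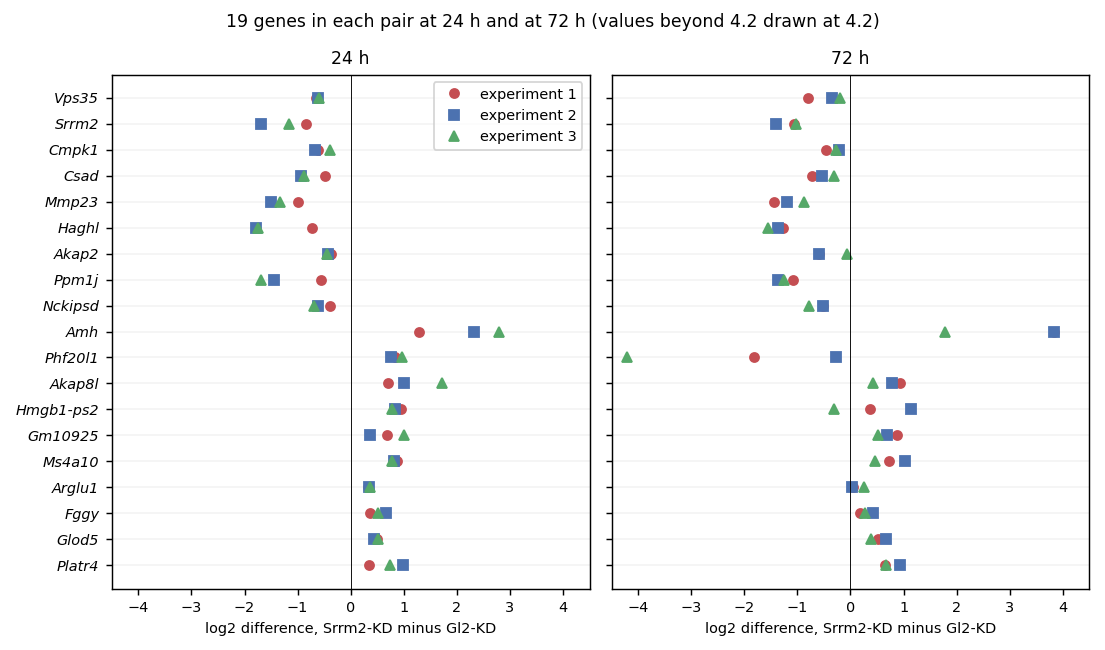
Log2 differences between Srrm2-KD and Gl2-KD (x axis) of 19 genes (y axis) in each experiment at 24 h and at 72 h, with values beyond 4.2 drawn at the edge. *Haghl*, *Ppm1j* and *Srrm2* lay below 0 in all 3 experiments at both times, *Amh* and *Akap8l* above 0 in all, and *Phf20l1* above 0 at 24 h and below 0 at 72 h.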

How the data were processed

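Polyadenylated RNA was sequenced from 3 Gl2-KD and 3 Srrm2-KD libraries at 24 h, paired-end on a stranded kit. Per the study's methods, the authors quantified transcripts with kallisto, and the table they deposited holds estimated counts per gene, not normalized, which need not be whole (39.2% to 43.1% of all values, those of 0 included, were not). The submitters' processing notes name kallisto 0.46.1 and mm10. Counts were rounded and genes filtered with filterByExpr (minimum count 10, minimum total 15), scaled by TMM and tested in edgeR 4.0.16 (R 4.3.3) by quasi-likelihood with the experiment as a block, with calls at 0.05 after Benjamini-Hochberg adjustment. Totals of 80944236 to 153298776 set the counting precision, and p-values measure the spread between these 3 pairs.

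The pairing comes from the experiment number in the labels. Deviations from the group means correlated at 0.733, 0.635 and 0.619 for same-numbered libraries and at -0.518 to -0.00405 for others. Deviations within a group cancel out, so the negative values for the others are partly fixed by this calculation. The RNA processing day that the study used as a covariate was not given per library in the sources used here. Pair differences are in log2 CPM with a prior count of 2. GC content, length and symbols came from GENCODE M21 on GRCm38, with symbols for 42156 of 42450 genes and values for 18048 of 18132 tested genes. Shared sequence was measured as the percentage of a gene's 31-base words found in transcripts of other genes. Offsets for GC content and length were loess trends per library (span 0.3). The interaction with time was fitted on 12 libraries. Alternatives were DESeq2 1.42.0, limma-voom (limma 3.58.1), other scalings, filters and blocks, and leaving out an experiment. The fits were tested on simulated data.

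Named genes were *Srrm2* and its relatives, the 10 higher and 10 lower genes with the smallest p among genes of one sign in all 3 pairs and a mean of at least 1 CPM, and in each list its first 2 members and the one with the smallest p. Some genes that this rule selects are not reported here. The lists and members were chosen with earlier results of these data known. The authors' own comparison values were not used.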

Additional observations from a re-analysis of the deposited data

How the results depend on the processing

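The count of 0 genes at an adjusted p below 0.05 on 3 pairs became 258 with DESeq2, 93 with no filter on low counts and 2 with robust dispersion, and 137 with offsets for GC content and length when experiment 1 was left out. Leaving out 1 experiment gave 12 to 939 genes in edgeR, and without experiment 1 DESeq2 gave 719 and limma-voom 1090. It stayed 0 with the other scalings, filters and blocks, limma-voom and offsets on 3 pairs. Without the replicate block, which drops the pairing, 43 genes were higher and 77 lower at an unadjusted p below 0.05 in place of 730 and 1107, and an additive block over 12 libraries gave 223 and 285. Leaving out 1 experiment gave 404 to 1558 higher and 507 to 2235 lower genes, limma-voom without experiment 1 gave 1614 and 2278, and offsets without experiment 1 gave 1427 higher. *Srrm2* passed with DESeq2 (-1.23), with no filter (-1.23), without any 1 experiment (-1.43 to -0.99) and with offsets without experiment 1 (-1.35). *Pou5f1* changed sign, from -0.04 to 0.0182 with offsets and 0.071 with offsets without experiment 1, and ranged from -0.0823 to 0.0106 when 1 experiment was left out. Among the other 82 named genes no value changed sign. The correlation of experiments 1 and 2 was 0.30 with the GC and length trend removed, and that of experiments 2 and 3 was 0.574 at 10 CPM or more and 0.517 with the trend removed. The count of genes that differed between 72 h and 24 h was 7 with DESeq2 and 0 to 2 when an experiment was left out. Of 55 list medians, 5, 8 and 7 took the other sign without experiment 1, 2 or 3, and 10 with offsets. The cause of these changes was not tested.

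The alternatives that combine the left-out experiment with another tool or with offsets were chosen after seeing the data. With 3 pairs and 2 residual degrees of freedom, large differences in abundant genes missed the adjusted threshold in edgeR, *Srrm2* (-1.23, adjusted p = 0.255) among them.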

Other observations

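Several noncoding transcript classes had medians slightly above 0 at 24 h, which were nearer to 0 or below it after correction for GC content and length. Of 519 tested long intergenic noncoding RNAs, 27 were higher and 24 lower at an unadjusted p below 0.05, with a median log2 fold change of 0.07 (0.01 after correction). Of 529 antisense genes 13 were higher and 12 lower (median 0.05, and 0.01 after correction), and of 787 processed pseudogenes 19 were higher and 11 lower (median 0.03, turning to -0.04 after correction and to 0.00 (-0.00454) without experiment 1). Of 96 small nucleolar RNA genes 1 was higher and 1 lower (median 0.13, and 0.03 after correction). The 47 transcribed unprocessed pseudogenes had a median of -0.04 before correction. Protein-coding genes had a median of -0.01, with 626 higher and 1030 lower of 15017. The 421 protein-coding genes without an intron, which need no splicing, had 37 higher and 21 lower and a median of 0.05, from 0.03, 0.02 and 0.10 in experiments 1, 2 and 3. In experiments 2 and 3 alone edgeR called 20 of these genes higher and 13 lower, and with GC content and length corrected 0 higher and 1 lower. The median did not shrink with the correction, from 0.05 to 0.06 on 3 pairs, where 33 were higher and 16 lower, and from 0.06 to 0.09 in experiments 2 and 3. This class was not limited to nuclear genes and includes the 13 respiratory chain genes of mitochondrial DNA. Of those, 9 were higher and none lower on 3 pairs, or 5 and 1 after correction, and 9 were called higher in experiments 2 and 3. The nuclear genes without an intron were not counted apart. The fifth of all tested genes with the lowest level had a median of 0.06, and that with the highest level 0.00 (0.000381).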
